A study of Mus musculus with 6 samples.

Results

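The 10 genes described here belong to the S100 family of calcium-binding proteins. They were chosen by gene identifier, as S100A2, S100A4, S100A6, S100A8, S100A9, S100A10, S100A11, S100A14, S100A16 and S100P, and all 10 were found among the 60649 genes of the count table. RNA was sequenced in 6 tumors grown from LAPC-4, a human, hormone-sensitive prostate cancer line with wild-type androgen receptor. The cells were injected with Matrigel into the flank of male CB.17 scid/scid mice, bought at 6 to 8 weeks of age, which lack B and T cells but keep other host cells. All mice ate the high glycemic index (HiGI) diet until tumors averaged 200 mm3. They were then single-housed and randomized to a HiGI Western diet, whose carbohydrate came from sucrose, or a low glycemic index (LoGI) Western diet, whose carbohydrate came mainly from a high-amylose starch. Each mouse was sacrificed after a fast once its tumor had reached a set volume, so the time on the diet was not fixed. The HiGI group comprised tumors 16, 20 and 26 and the LoGI group tumors 19, 27 and 28. Both groups therefore share one cell line and one host strain, and no tumor from a mouse on another diet entered the comparison.

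S100 proteins are small proteins, most of which change shape when calcium binds to a pair of EF-hand loops and then grip a target protein. Inside the cell they act on annexins, myosin and other parts of the cortex and cytoskeleton. Several are released and signal to neighboring cells through receptors such as RAGE (gene AGER) and TLR4. Most of their genes lie in a cluster on the long arm of chromosome 1, within and beside the genes of epidermal differentiation, whereas S100P lies on another chromosome. In prostate epithelium S100A2 is known as a marker of basal cells, and its loss has been described in prostate cancer.

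The 10 members did not move as one between diets. S100A2 was 41.4-fold lower and S100A6 3.05-fold lower in LoGI tumors, and these were the only members to reach a log2 fold change of 1 in either direction at an adjusted p under 0.05 (quasi-likelihood test of edgeR, Benjamini-Hochberg adjusted over all genes tested). S100P was 1.602-fold higher in LoGI tumors, with an adjusted p under 0.05 but a fold under that minimum. The other 6 tested members had folds between 0.369 and 1.19 of LoGI over HiGI and did not pass the test, and S100A8 was at or below 2 reads in every tumor.

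Library totals lay between 18749813 and 21550812 reads. Levels are given as normalized CPM, the reads of a gene in 1000000 library reads after scaling by TMM factors, which lay between 0.964 and 1.03. One read was worth 0.0460 to 0.0532 CPM, and 3 reads, the smallest amount taken as measurable, 0.138 to 0.159 CPM. Reads were not corrected for gene length, so CPM is compared between tumors for one gene and not between genes. The test covered the 24545 genes whose reads in the 6 tumors came to 10 or more, and 9 of the 10 members were among them. S100A9 reached that sum only through the HiGI tumors, with 26 reads against 9 in LoGI tumors. With 3 tumors a diet, an exact two-sided permutation test of a single value cannot go below p = 0.1, and none was run. The tumors are separate mice, and in such bulk tissue fewer cells of a kind and less RNA per cell cannot be told apart.

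Of the 9 tested members, 2 were called lower and 0 higher in LoGI tumors, in edgeR's test at the threshold above. The DESeq2 Wald test and edgeR's exact test also called 0 members higher, since S100P had log2 fold changes of 0.69 and 0.68 there. Its adjusted p was 0.0100 in the DESeq2 Wald test and 0.0076 in edgeR's exact test. Of all 24545 genes tested, 3.38% were called lower and 0.0733% higher, so calls toward lower expression were the more common ones throughout. Since the members were chosen with earlier results of these data known, these shares are background and not a test of the members. With no minimum fold change the members' numbers were 2 lower and 1 higher, against 4.36% and 0.367% of all genes. The normalized CPM of the 3 LoGI tumors lay entirely below the HiGI tumors for 2 members and entirely above them for 1, and the diets overlapped for the other 7. Among all tested genes the diets did not overlap, with LoGI lower, for 10.9% and, with LoGI higher, for 7.59%. The median log2 fold change of LoGI over HiGI was -0.15 over the 9 tested members and 0.0034 over all tested genes, and -0.034 over the 8 members left without S100A9.

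**Figure D1:**
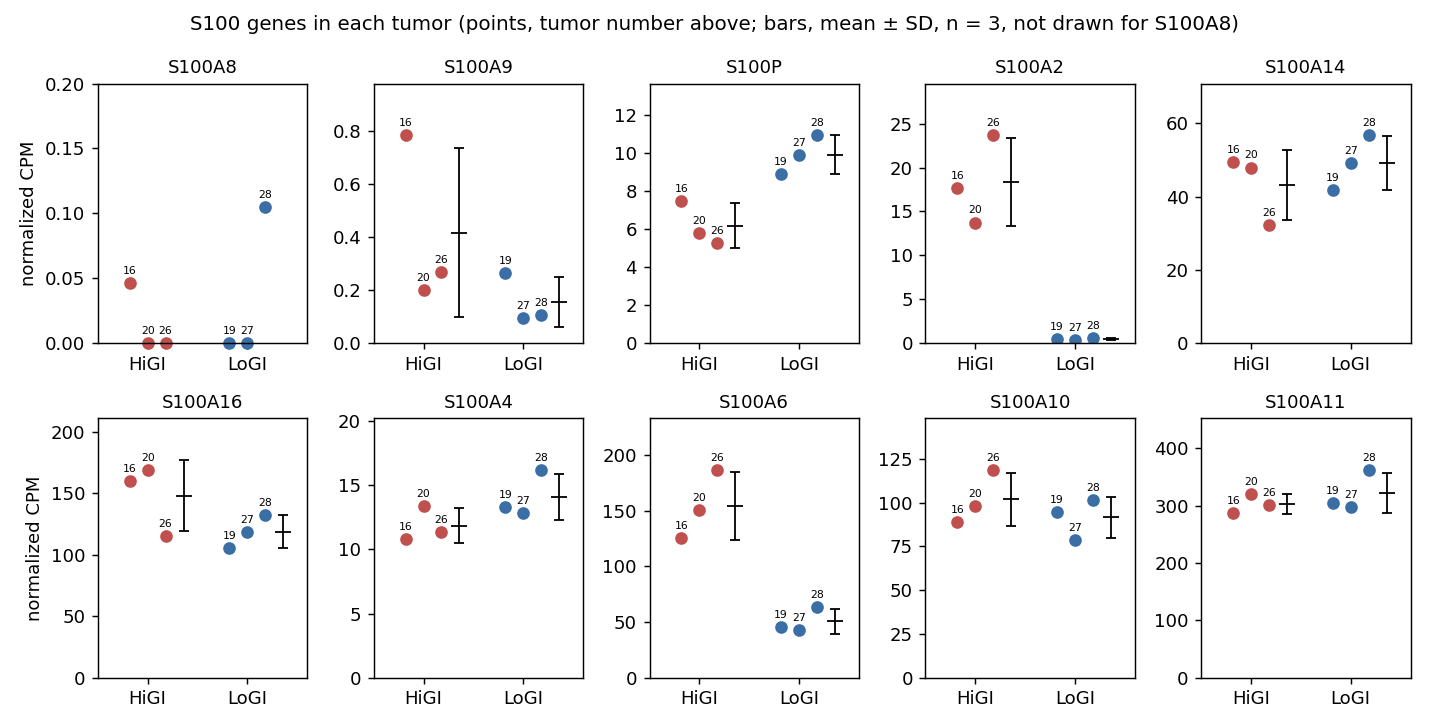
Normalized CPM (vertical axes, each starting at 0) of the 10 S100 genes in 3 HiGI (red) and 3 LoGI (blue) tumors, with the tumor number above each point and bars for the mean ± SD (n = 3; not drawn for S100A8, which had 0 to 2 reads a tumor). The diets are separate for S100A2, S100A6 and S100P and overlap for the other 7 genes.

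S100A2 (ENSG00000196754.13) is an epithelial member found in basal and squamous cells, mostly in the nucleus, where it can bind p53. Reads of S100A2 numbered 385, 276 and 445 in HiGI tumors 16, 20 and 26 but 8, 8 and 10 in LoGI tumors 19, 27 and 28. Each LoGI library thus held more than 3 reads of S100A2, so that its fold change was computed against a small count and not against 0 reads. Whether these few reads came from S100A2 RNA of the tumor cells was not tested. In normalized CPM it was 17.7, 13.7 and 23.7 in HiGI tumors and 0.419, 0.374 and 0.525 in LoGI tumors, a mean of 18.4 ± 4.995 (SD, n = 3) against 0.440 ± 0.0774 (SD, n = 3). The lowest HiGI tumor was 26.1-fold above the highest LoGI tumor, and the highest HiGI tumor 63.2-fold above the lowest LoGI tumor. On the log2 scale the change was -5.37 (adjusted p = 2.94e-09, edgeR's quasi-likelihood test). DESeq2 gave -5.39 with a standard error of 0.35 and a 95% interval from -6.06 to -4.71. By the size of its p, S100A2 ranked 32nd of the 24545 genes tested, and 193 genes, or 0.786%, had a lower log2 fold change.

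S100A14 (ENSG00000189334.9) and S100A16 (ENSG00000188643.11), the other members grouped with epithelial expression, showed no such step. S100A14 is known from epithelial tissues, often at the cell border. Its normalized CPM was 49.4, 48.0 and 32.2 in HiGI tumors 16, 20 and 26, and 41.7, 49.2 and 56.7 in LoGI tumors 19, 27 and 28. HiGI tumor 26 was the lowest of the 6 tumors, and the other HiGI values fell among the LoGI values. The log2 fold change of S100A14 was 0.19 (adjusted p = 0.701, edgeR's quasi-likelihood test), with a DESeq2 95% interval from -0.12 to 0.50, and it was 0.018 without HiGI tumor 26 and 0.072 without LoGI tumor 28.

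S100A16 is a widely expressed member. Its normalized CPM was 160 and 169 in HiGI tumors 16 and 20, 115 in HiGI tumor 26, and 106, 118 and 132 in LoGI tumors 19, 27 and 28. HiGI tumors 16 and 20 were thus above all LoGI tumors, and HiGI tumor 26 lay among them. The mean was 148 ± 28.8 (SD, n = 3) in HiGI and 119 ± 13.3 (SD, n = 3) in LoGI tumors. This gave a log2 fold change of -0.32 (unadjusted p = 0.0241, adjusted p = 0.249, edgeR's quasi-likelihood test), with a DESeq2 95% interval from -0.58 to -0.047. With one tumor left out it ran from -0.47 without HiGI tumor 26 to -0.21 without HiGI tumor 20. The adjusted p in edgeR's test was 0.0140 in the first of these fits, 0.626 in the second and above 0.05 in the other 4.

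S100A6 (ENSG00000197956.10), also called calcyclin, binds annexins and the calcyclin-binding protein CACYBP and is abundant in many proliferating cells. Reads of S100A6 numbered 2728, 3039 and 3509 in HiGI tumors 16, 20 and 26 but 868, 921 and 1203 in LoGI tumors 19, 27 and 28. Every LoGI tumor lay below every HiGI tumor, with 45.5, 43.1 and 63.2 normalized CPM against 125, 151 and 187. The mean was 154 ± 30.7 (SD, n = 3) in HiGI and 50.6 ± 10.96 (SD, n = 3) in LoGI tumors, and single HiGI tumors were 1.98-fold to 4.33-fold above single LoGI tumors. This was a log2 fold change of -1.61 (adjusted p = 3.5e-06, edgeR's quasi-likelihood test). DESeq2 gave -1.60 with a standard error of 0.16 and a 95% interval from -1.91 to -1.30. A lower log2 fold change was found for 4.42% of all tested genes, and S100A6 ranked 181st by p.

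The remaining 3 members that act on annexins and the cytoskeleton did not pass the test. S100A4 (ENSG00000196154.12), which binds nonmuscle myosin and is linked to cell motility and metastasis, had 10.8, 13.4 and 11.3 normalized CPM in HiGI tumors 16, 20 and 26, and 13.3, 12.8 and 16.2 in LoGI tumors 19, 27 and 28. HiGI tumor 20 lay above LoGI tumors 19 and 27. Its log2 fold change was 0.25 (adjusted p = 0.512, edgeR's quasi-likelihood test), with a DESeq2 95% interval from -0.062 to 0.57, and was 0.14 without LoGI tumor 28.

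S100A10 (ENSG00000197747.9), the member that does not need calcium and holds annexin A2 in a complex at the cell membrane, had 89.2, 98.0 and 118 normalized CPM in the HiGI tumors and 94.8, 78.4 and 101 in the LoGI tumors, in the same order. The diets overlapped in part, with HiGI tumor 26 above all LoGI tumors and LoGI tumor 27 below all HiGI tumors. The log2 fold change was -0.15 (adjusted p = 0.674, edgeR's quasi-likelihood test), with a DESeq2 95% interval from -0.40 to 0.10. It was -0.029 without HiGI tumor 26, -0.047 without LoGI tumor 27, and between -0.24 and -0.18 with any other tumor left out. S100A11 (ENSG00000163191.6), a partner of annexin A1, had 287, 320 and 301 normalized CPM in HiGI tumors and 304, 298 and 362 in LoGI tumors. Apart from LoGI tumor 28 the values lay within a narrow range. Its log2 fold change was 0.087 (adjusted p = 0.796, edgeR's quasi-likelihood test), with a DESeq2 95% interval from -0.11 to 0.29. For S100A4, S100A10, S100A11, S100A14 and S100A16 the DESeq2 intervals did not reach a log2 fold change of 1 in either direction.

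S100P (ENSG00000163993.7), a secreted ligand of RAGE that also binds ezrin inside the cell, was the one member whose LoGI values all lay above its HiGI values. Reads of S100P numbered 163, 116 and 99 in HiGI tumors 16, 20 and 26 but 170, 212 and 208 in LoGI tumors 19, 27 and 28. The mean was 6.17 ± 1.17 normalized CPM (SD, n = 3) in HiGI and 9.92 ± 1.004 (SD, n = 3) in LoGI tumors, with a narrow gap between HiGI tumor 16, at 7.49, and LoGI tumor 19, at 8.91. Its log2 fold change was 0.68 (adjusted p = 0.0293, edgeR's quasi-likelihood test), higher than that of 94.2% of all tested genes. DESeq2 gave 0.69 with a standard error of 0.19 and a 95% interval from 0.31 to 1.06. Without HiGI tumor 20, HiGI tumor 26, LoGI tumor 19, LoGI tumor 27 or LoGI tumor 28 its adjusted p in edgeR's test was between 0.0575 and 0.116, so that the difference of S100P did not pass 0.05 in these fits. Without HiGI tumor 16 it was 0.0080. The log2 fold change of S100P ran from 0.58 to 0.84 with one tumor left out.

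**Figure D2:**
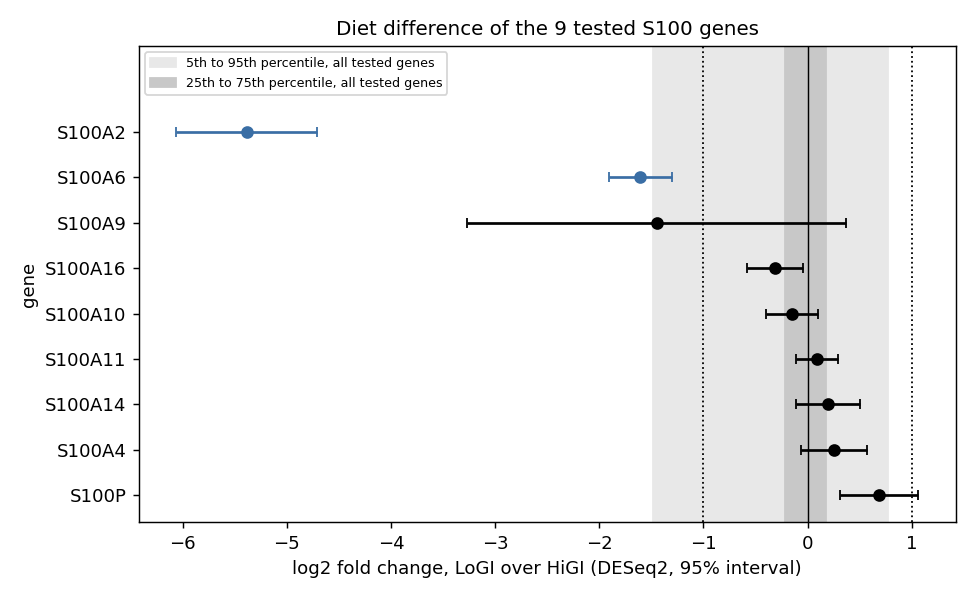
Log2 fold change of LoGI over HiGI tumors (horizontal axis) for the 9 tested S100 genes, as DESeq2 estimates with 95% intervals, against the spread over all tested genes (shaded, DESeq2) and a log2 fold change of 1 up or down (dotted lines). S100A2 and S100A6 (blue), the members called in edgeR's test, lie below -1 with their whole intervals, whereas the interval of S100A9 runs from -3.27 to 0.37.

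S100A8 (ENSG00000143546.10) and S100A9 (ENSG00000163220.11) form calprotectin, a heterodimer that neutrophils and monocytes make in large amounts and that inflamed epithelium can also express. S100A8 had 1 read in HiGI tumor 16, 2 reads in LoGI tumor 28 and 0 reads in the other 4 tumors. Summed by diet this was 1 read in 59794874 (exact Poisson 95% interval 0.0253 to 5.57 reads) for HiGI and 2 reads in 60319160 (0.242 to 7.22 reads) for LoGI, so a difference was not detectable at this depth. For S100A9 the reads numbered 17, 4 and 5 in HiGI tumors 16, 20 and 26 and 5, 2 and 2 in LoGI tumors 19, 27 and 28. Most of the HiGI reads came from tumor 16, while HiGI tumors 20 and 26 and LoGI tumor 19 were alike. The sums of 26 reads (exact Poisson 95% interval 17.0 to 38.1) and 9 reads (4.12 to 17.1) touch at their limits, and these intervals cover counting error only. The log2 fold change of S100A9 was -1.44 (adjusted p = 0.411, edgeR's quasi-likelihood test), with a DESeq2 95% interval from -3.27 to 0.37. Without HiGI tumor 16 it was -0.59. Reads unique to mouse had been removed by the authors, and whether reads of the host's own S100 genes remained among the counts was not tested.

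As a share of the library, the 10 genes held 0.0773%, 0.0824% and 0.0796% of the reads in HiGI tumors 16, 20 and 26, and 0.0616%, 0.0605% and 0.0717% in LoGI tumors 19, 27 and 28. Clopper-Pearson 95% intervals, again for counting error only, were narrow, the widest running from 0.0784% to 0.0809% in HiGI tumor 26. Other S100 genes were not looked up, so these shares are not those of the whole family. The sum of the 10 genes was lower in every LoGI tumor than in any HiGI tumor, at 646 ± 61.3 CPM (SD, n = 3; here without TMM scaling) against 798 ± 25.6 (SD, n = 3). S100A2 and S100A6, taken out after their values had been seen, accounted for most of this difference, with a sum of 175 ± 32.5 CPM in HiGI and 50.2 ± 9.84 in LoGI tumors. The other 8 members together had 625, 658 and 586 CPM in HiGI tumors 16, 20 and 26, and 570, 562 and 655 in LoGI tumors 19, 27 and 28. For these 8 the diets overlapped, with means of 623 ± 36.3 and 596 ± 51.5 CPM (SD, n = 3 each).

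**Figure D3:**
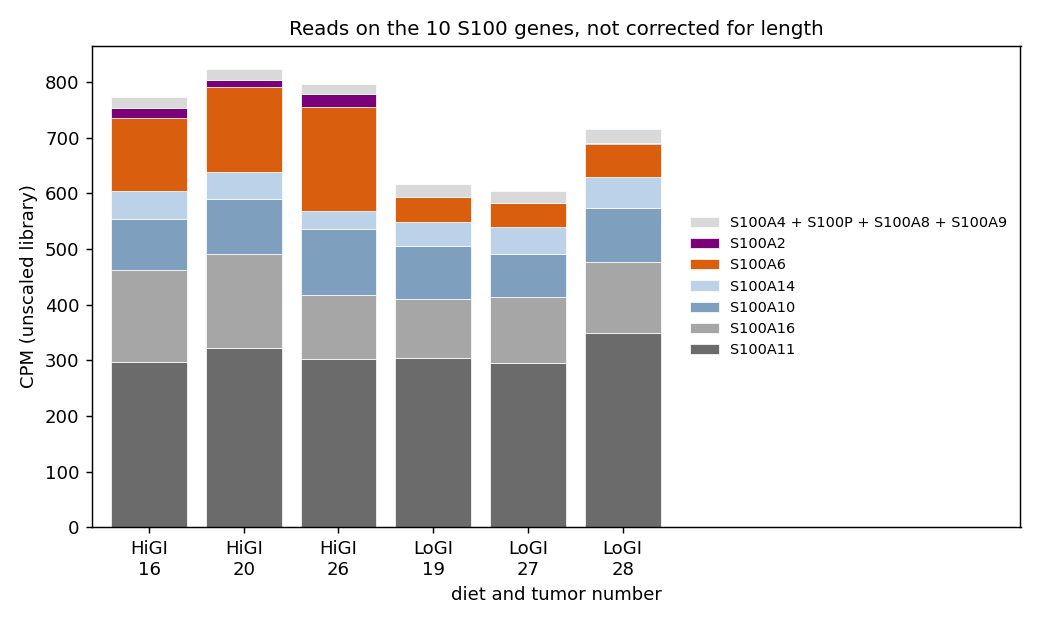
CPM of the unscaled library (vertical axis, from 0) on the 10 S100 genes in each tumor, stacked by gene and not corrected for gene length. The S100A6 and S100A2 segments are smaller in the 3 LoGI tumors, and the S100A11 segment is the tallest in all 6 tumors.

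In LoGI tumors the shares of S100A2 and S100A6 among the reads of the 10 genes all lay below those in HiGI tumors. The shares of S100A4, S100A11, S100A14 and S100P all lay above, although of these only S100P did so in normalized CPM. The shares of the other 4 members overlapped. S100A11 took 38.3%, 39.1% and 37.9% of these reads in HiGI tumors 16, 20 and 26, and 49.5%, 48.9% and 48.7% in LoGI tumors 19, 27 and 28. S100A6 took 16.8%, 18.5% and 23.5% in the HiGI tumors and 7.40%, 7.06% and 8.50% in the LoGI tumors. S100A2 took 2.34% ± 0.652 (SD, n = 3) in HiGI and 0.0667% ± 0.00484 (SD, n = 3) in LoGI tumors. S100A16 and S100A10 held 18.9% ± 3.78 and 12.9% ± 1.72 in HiGI tumors, and 18.1% ± 1.13 and 13.97% ± 1.32 in LoGI tumors (SD, n = 3 each). These shares are tied to each other, since a smaller share of S100A6 leaves a larger one for the rest.

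A ratio of one member to another within a tumor does not depend on how the libraries are scaled. The other 8 members with reads in every tumor were therefore set against S100A11, the member with the most reads and the smallest log2 fold change in size. These ratios were added after the values were seen and are a description, with no test. The log2 ratio of S100A6 to S100A11 reads was -1.19, -1.08 and -0.69 in HiGI tumors 16, 20 and 26, and -2.74, -2.79 and -2.52 in LoGI tumors 19, 27 and 28. All LoGI tumors lay below all HiGI tumors, and the means differed by -1.69. The log2 ratio of S100A2 to S100A11 averaged -4.08 ± 0.44 (SD, n = 3) in HiGI and -9.52 ± 0.11 (SD, n = 3) in LoGI tumors, a difference of -5.45. The ratios of S100A4 and S100P did not overlap either, with differences of 0.17 and 0.61, and those of S100A9, S100A10, S100A14 and S100A16 overlapped. In normalized CPM S100A4 did overlap, and how many of all genes separate in such ratios was not counted. S100A2 also differed relative to S100A6, the other member that was lower. For every 100 reads of S100A6 there were 14.1, 9.08 and 12.7 reads of S100A2 in HiGI tumors 16, 20 and 26, but 0.922, 0.869 and 0.831 in LoGI tumors 19, 27 and 28.

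Tumors of one diet also differed among themselves, and not in the same way for every member. In HiGI tumor 26, S100A2, S100A6 and S100A10 were at their highest HiGI level, while S100A14, S100A16 and S100P were at their lowest. Leaving aside S100A8, which never reached 3 reads, HiGI tumors 16, 20 and 26 each held the highest HiGI level of 3 members. Among LoGI tumors, tumor 28 held the highest level of 8 members, with TMM factors and with library totals alone, and LoGI tumor 19 that of S100A9. How many of all tested genes were highest in each tumor was not counted, so these numbers cannot be read as particular to the members. The biological coefficient of variation estimated by edgeR was 8.71% for S100A11, the steadiest of the 9 tested members, 13.1% for S100A6, 16.6% for S100A2 and 42.1% for S100A9, against a median of 16.5% over all tested genes. The estimate for S100A2 was thus near the median of all tested genes but above the 13.7% that edgeR's trend gave for genes of its abundance. Its normalized CPM had an SD of 27.2% of the mean in HiGI and 17.6% in LoGI tumors.

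**Figure D4:**
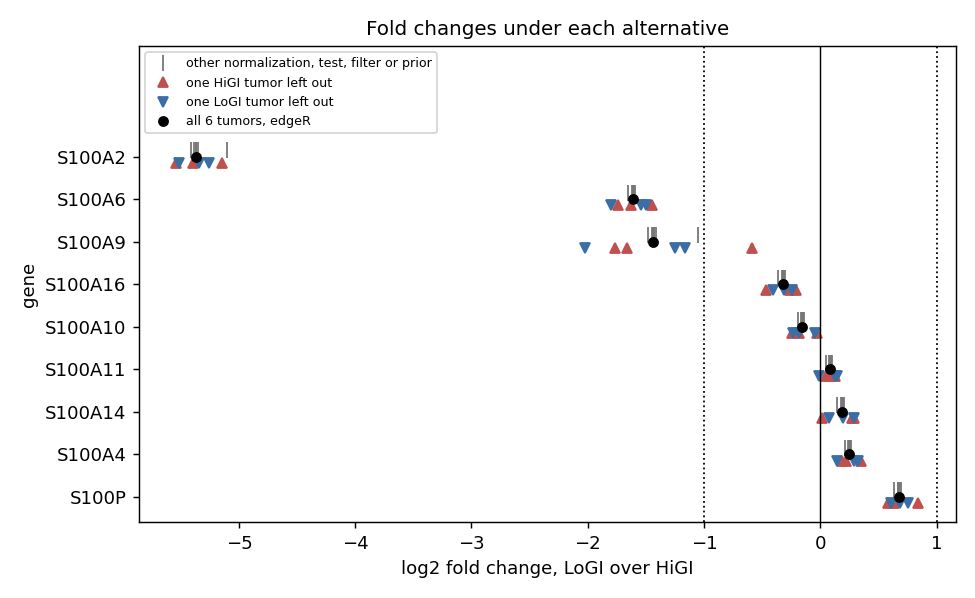
Log2 fold change of LoGI over HiGI tumors (horizontal axis) for the 9 tested S100 genes with all 6 tumors in edgeR (black points), under other normalizations, tests, filters and prior counts (gray ticks), and with one HiGI (red) or one LoGI (blue) tumor left out. S100A2 stays between -5.54 and -5.10 and S100A6 between -1.80 and -1.45, whereas S100A9 runs from -2.02 to -0.59.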

How the data were processed

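RNA-sequencing covered 6 xenograft tumors, 3 a diet, with stranded libraries and single-end reads of 75 bp. The authors mapped reads to the human (GRCh38.p13) and mouse (GRCm38.p6) genomes with BBMap, removed reads unique to mouse, and used STAR and RSEM on the human genome. The deposited values are whole-number counts per gene, with no normalization. How the RSEM estimates became whole numbers is not given in the sources used here. Tumors were assigned to diets from the treatment label, whose 2 codes were read as the high and low glycemic index Western diets. The label names mouse as the organism, whereas the counted genes are human.

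Counts were normalized by TMM and tested between diets with edgeR 4.0.16 (glmQLFit and glmQLFTest, prior count 0.125) in R 4.3.3, with Benjamini-Hochberg adjustment over the 24545 genes with at least 10 reads in all. As in the study, a gene was called when its adjusted p was under 0.05 and its log2 fold change reached 1 in either direction. Standard errors and 95% intervals came from DESeq2 1.42.0. In counts simulated for this comparison with 200 genes changed 4-fold, the test called 99.5% of them among 23926 genes tested, with 7 false calls. The changed genes were drawn from well-covered ones, as many raised as lowered, with the variation estimated from these data. The simulation therefore does not cover genes with few reads, such as S100A9, or changes under 4-fold. The alternatives were other normalizations, tests, filters and prior counts, and leaving out each tumor. The ratios within a tumor, with their other reference genes, were added after seeing the data.

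All 10 genes were to be named, and were chosen, like the lists, with earlier results of these data known. The 11 lists written for this work (other S100 genes, receptors, partners, epidermal, neighboring, prostate, basal, myeloid, fibroblast and endothelial genes) hold symbols, which the count table does not pair with its identifiers. They were not looked up here, so the tumors were not checked against cell type markers. Reads shared with related copies, gene length and sequences were not analysed here.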

Additional observations from a re-analysis of the deposited data

How the results depend on the processing

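S100A2 and S100A6 kept their direction and their call under every alternative that tested them. With at least 10 reads in every tumor S100A2 was not tested, since its LoGI tumors include 8 reads, and the number of members called lower was 1. With one tumor left out it was 2 to 2 in each of the 6 fits. S100A2 ran from -5.54 to -5.14 and S100A6 from -1.80 to -1.45 in those fits, on the log2 scale. The number called higher was 1, S100P, with no minimum fold change, and 0 to 0 with one tumor left out. With at least 10 reads in every tumor the adjusted p of S100P in edgeR's test was 0.0557. Under the other normalizations and filters in edgeR's test, edgeR's exact test and the DESeq2 Wald test it lay between 0.0041 and 0.0488. S100A16 had an adjusted p of 0.0251 in edgeR's test when 1 read was enough to enter it. With that filter the adjusted p of S100A2 in edgeR's test also fell, from 2.94e-09 to 3.14e-107. That of S100A6 fell from 3.5e-06 to 2.37e-54, whereas those of S100A4 and S100A10 rose. The size of these adjusted p values thus depended on the filter. S100A11 changed sign without LoGI tumor 28, to -0.0069, in a range up to 0.15 over the 6 fits. The log2 ratio difference of S100A6 moved from -1.69 to -1.31 when S100A16 was the reference, and was -1.46 with S100A10. These ratios and references were chosen after seeing the data. The cause of these shifts was not tested. Scaling moved the median of all genes by less than 0.1 on the log2 scale, from 0.0034 with TMM to 0.019 with upper-quartile normalization and -0.037 with library totals.

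S100A8 was tested only where 1 read was enough, and S100A9 was not tested with filterByExpr or with at least 10 reads in every tumor. The alternatives for the lists were not run, since the lists were not looked up. No paired analysis was possible because the labels give the tumors no shared numbers. With 3 tumors a diet and single-read steps near 0.05 CPM, the depth limits S100A8 and S100A9 most.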
